A study of Mus musculus with 2 samples.

Results

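The transcripts followed here are 10 mouse genes listed as primary granule genes of promyelocytes: Mpo, Elane, Prtn3, Ms4a3, Prss57, Fcnb, Cst7, Plac8, Nkg7 and Srgn. They were chosen by symbol, and all 10 were found once among the 34745 gene models of the deposited RNA-seq tables. Primary (azurophil) granules are the first granules that a developing granulocyte makes, at the promyelocyte stage. They hold myeloperoxidase, a family of neutrophil serine proteases and other proteins that kill microbes, packed on an acidic proteoglycan, and their genes are switched on by factors such as C/EBP alpha, PU.1, RUNX1 and MYB. Acute promyelocytic leukaemia, in which the PML/RARa fusion blocks maturation, is named for cells arrested at this stage, which are usually rich in these granules.

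The cells were haematopoietic stem and progenitor cells from the femurs of C57BL/6 mice that had received 5-fluorouracil. They were infected with lentivirus carrying PML/RARa (2KR) in one culture and PML/RARa (WT) in the other, in the presence of 6 µg/ml polybrene, and the transduced cells were sorted for RNA. Both cultures received the cytokines SCF (50 ng/ml), IL-3 (10 ng/ml) and IL-6 (10 ng/ml) with hydrocortisone and 20% fetal bovine serum, and the medium was renewed 24 h after infection. The series title speaks of a pair of lysines in the fusion, and the labels do not give the promoter that drives it, the number of mice or the time of sorting. The pMSCV vector arm named in the protocol was not analysed here, so neither form is set against cells without the fusion. There was 1 library of each form, with 20462011 counts in 2KR and 17606168 in WT. The differences below therefore have no replicates behind them, no test was run, and every 95% interval covers counting error only.

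The labelled cell type was checked against its markers. Kit, the SCF receptor, had 1158 CPM (counts relative to library size, scaled with the TMM method) in 2KR and 1359 in WT, and the progenitor antigen gene Cd34 had 723 CPM in 2KR and 388 in WT. Of 12 progenitor genes 11 had counts, and Hoxa9 had 0 in both libraries. Genes of mast cells and basophils were also read at high levels, with 13 of 15 above 0 and a summed level of 5438 CPM in 2KR and 9383 CPM in WT. Kit is listed with these genes and counted in that sum, so its level cannot tell progenitors from mast cells. Cpa3, the mast cell carboxypeptidase, made up 2525 CPM of that sum in 2KR and 5468 in WT, while Tpsab1 and Fcer1a had 0 counts in both.

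The counts of the group came almost wholly from genes that other cells use too. Cst7, Nkg7 and Srgn took 96.4% of the counts of the 10 genes in 2KR (Wilson 95% interval 96.1 to 96.6) and 98.1% in WT (97.9 to 98.3). These 3 genes are not limited to promyelocytes: Nkg7 and Cst7 are also genes of cytotoxic lymphocytes, and Srgn is used by mast cells, platelets and lymphocytes. Among the classical granule genes, Mpo, for myeloperoxidase, had 741 counts in 2KR and 283 in WT. Elane, neutrophil elastase, had 10 counts in 2KR and 5 in WT, Prtn3, proteinase 3, had 14 counts in 2KR and 6 in WT, and Fcnb, the lectin ficolin B, had 0 in both. All 10 genes together held 0.126% of the 2KR library (0.124 to 0.127) and 0.121% of the WT library (0.119 to 0.122). Without Cst7, Nkg7 and Srgn the other 7 genes held 931 counts in 2KR and 402 in WT, most of them from Mpo. The label thus holds only in part. Mpo passed the filter of a mean of at least 1 CPM, as did 21 of 23 other listed azurophil granule genes, among them Ctsg, cathepsin G, with 487 CPM in 2KR and 212 in WT, whereas Elane, Prtn3 and Fcnb did not. The genes are called below by their names.

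**Figure D1:**
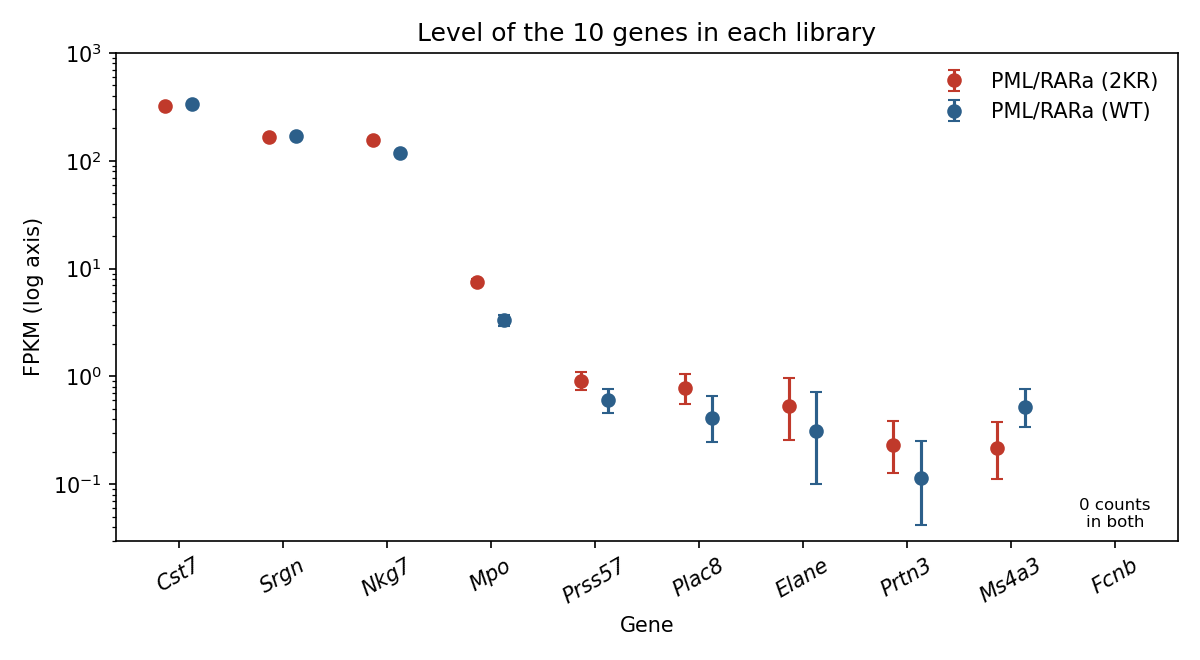
Level of each of the 10 genes as deposited FPKM (counts divided by gene length and by the total of the library) on a log axis, 2KR in red and WT in blue, with exact Poisson 95% intervals of the count. Cst7, Srgn and Nkg7 lie above 100 FPKM in both libraries, Mpo is next at 7.52 in 2KR and 3.34 in WT, and the other genes lie below 1, with Fcnb at 0.

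Between genes, levels were compared on FPKM, which is scaled to gene length. Cst7 had the highest level of the 10, 323 FPKM in 2KR and 334 in WT, which placed it at rank 71 of 16498 models above 0 in 2KR and at rank 69 of 16547 in WT. Srgn followed with 166 FPKM in 2KR and 171 in WT, and Nkg7 with 155 FPKM in 2KR and 118 in WT. The intervals of these neighbours in the order did not overlap in either library. Mpo came next with 7.52 FPKM in 2KR (6.99 to 8.08) and 3.34 in WT (2.96 to 3.75), far below Nkg7 and apart from every gene under it. In 2KR 66.5% of the models above 0 had a lower FPKM than Mpo, and in WT 49.8% had. Below Mpo the order of neighbours could not be resolved by counting, since each interval overlapped that of the next gene. In 2KR the order ran Prss57, Plac8, Elane, Prtn3, Ms4a3 and in WT Prss57, Ms4a3, Plac8, Elane, Prtn3. Genes further apart could differ. Prss57 lay above Prtn3 in 2KR (0.752 to 1.09 against 0.126 to 0.388) and in WT (0.462 to 0.763 against 0.0423 to 0.251). The lowest level above 0 was 0.216 FPKM for Ms4a3 in 2KR and 0.115 FPKM for Prtn3 in WT.

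The order among the 3 abundant genes depends on the gene length used. The deposited FPKM of Srgn implies a length of 3890 bases, whereas its longest coding transcript in GENCODE M21 has 1727, and for Nkg7 the lengths are 1600 and 881. For Cst7 both are 986 bases. Per longest coding transcript Srgn moves to the top, at 374 on the FPKM scale in 2KR and 386 in WT, above Cst7 with 323 in 2KR and 334 in WT. Nkg7 stays the third with 282 in 2KR and 215 in WT, and Mpo the fourth with 13.2 in 2KR and 5.85 in WT.

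The libraries were then set against each other, to ask which of these transcripts differ with the form of the fusion. Mpo was higher in 2KR by more than 2-fold, Nkg7, Prss57 and Plac8 had smaller ratios above 1, Cst7 and Srgn differed by about 5%, and Ms4a3 was lower in 2KR on few counts. Of the 10 genes, 7 passed the filter of a mean of at least 1 CPM, and a gene was called different when its log2 ratio of CPM + 1 was at least 1 in size. By this rule 1 of the 7 was called, Mpo, on the higher side, and 0 on the lower side. The rule called 7.22% of the 12466 models tested, 2.66% as higher in 2KR and 4.56% as lower, and nothing is read from 1 call among 7 genes beside that background. The median log2 ratio of the 7 was 0.37, with 4 ratios above 1 and 3 below, against a median of 0.02 over all tested models, whose quartiles were -0.21 and 0.23. Elane, Prtn3 and Fcnb are outside these counts, and over the 9 genes with counts the median was 0.32. In bulk RNA, a change in the number of cells that hold a transcript and a change in its amount per cell cannot be told apart.

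**Figure D2:**
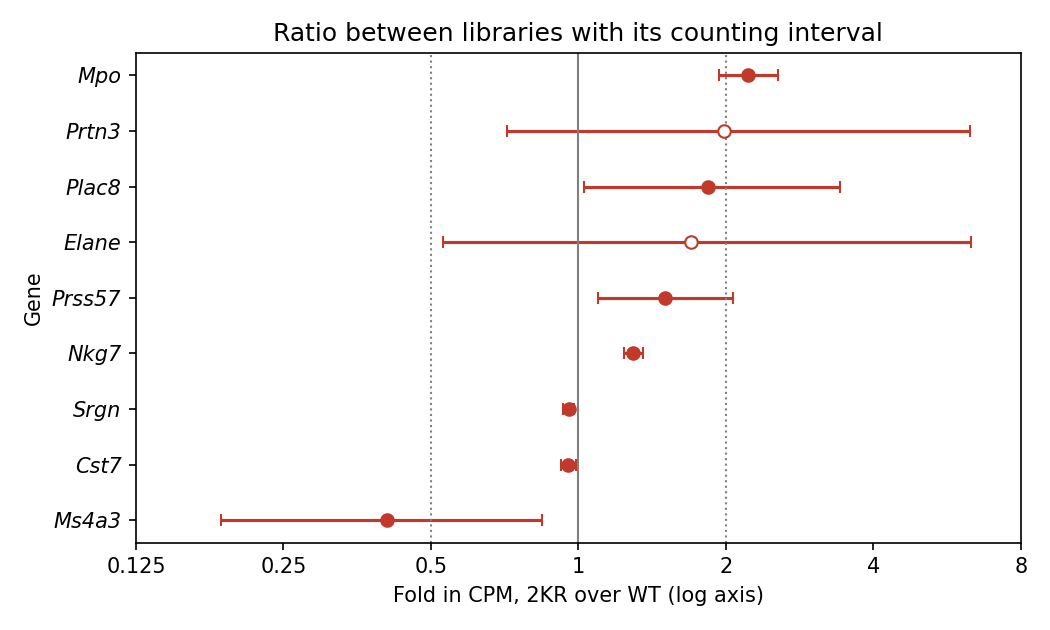
Fold in CPM, 2KR over WT, on a log axis for the 9 genes with counts, with exact 95% intervals of the count ratio. Filled points passed the filter on level, open points did not, and lines mark ratios of 0.5, 1 and 2. The interval of Mpo runs from 1.93 to 2.56, those of Elane and Prtn3 span 1, and that of Ms4a3 lies below 1.

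Mpo (ENSMUSG00000009350, chromosome 11, 87793581 to 87804413, plus strand, GRCm38) encodes myeloperoxidase, the haem enzyme of the granule that makes hypochlorous acid from hydrogen peroxide. It had 741 counts in 2KR and 283 in WT, or 36.0 CPM in 2KR and 16.2 CPM in WT. The 2KR library was thus the high one. The fold was 2.22, with an exact 95% interval of 1.93 to 2.56 (Clopper-Pearson, given the sum of both counts), and the log2 ratio of CPM + 1 was 1.10. Of all tested models 97.9% had a lower log2 ratio. Among the 4277 tested models within 2-fold of the mean level of Mpo, 1.92% were called higher in 2KR and 5.49% were called in either direction. Because the threshold lies close, the call is lost with a pseudocount of 5 CPM (log2 ratio 0.95), and on deposited FPKM + 1 no member was called. Another gene model, Gm11505, lies within Mpo and shares 512 exon bases with it on the opposite strand in GENCODE M21. Gm11505 had 0 counts in both libraries. The genes beside Mpo did not show its difference: Bzrap1, which ends 7652 bases before Mpo, had 7.18 CPM in 2KR and 7.09 in WT, and the peroxidase gene Lpo, which starts 2014 bases after it, had 0 counts in 2KR and 1 in WT.

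The neutrophil serine protease genes of the group lie in one stretch of chromosome 10. Prss57 (ENSMUSG00000020323, 79781474 to 79790961, minus strand), Prtn3 (ENSMUSG00000057729, 79874476 to 79883174, plus strand) and Elane (ENSMUSG00000020125, 79886312 to 79888216, plus strand) span 106 kb from the first base of Prss57 to the last of Elane, and 3137 bases separate Prtn3 from Elane. Prtn3 and Elane cleave bacterial and matrix proteins, and Prss57 encodes a related granule protease with trypsin-like specificity. Prss57 had 115 counts in 2KR and 65 in WT, or 5.58 CPM in 2KR and 3.72 in WT, and was 1.501-fold higher in 2KR (1.10 to 2.07). This value is uncertain, since 1157 of its exon bases are shared with Fstl3 on the opposite strand, which had 97 counts in 2KR and 119 in WT. Prtn3 had 0.679 CPM in 2KR and 0.343 in WT, with a ratio of 1.98 (0.715 to 6.29). Elane had 0.485 CPM in 2KR and 0.286 in WT, with a ratio of 1.70 (0.529 to 6.33). Both ratios are above 1, but their intervals hold 1, so no difference in Elane or Prtn3 was detectable at this depth, and neither passed the filter on level. Prtn3 also shares 159 exon bases with Lppr3, which had 61 counts in 2KR and 27 in WT.

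**Figure D3:**
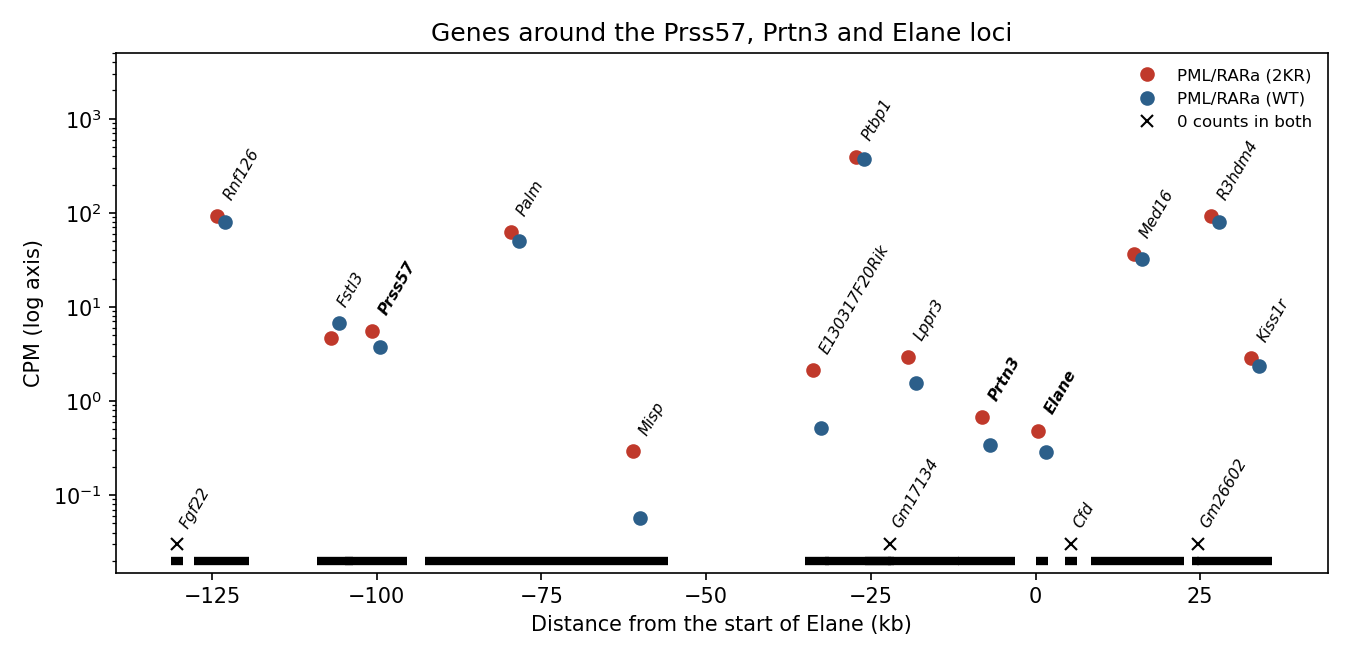
Genes around Prss57, Prtn3 and Elane (bold), by distance from the start of Elane in kb, with CPM on a log axis, 2KR in red and WT in blue. Black bars mark the gene models and crosses mark models with 0 counts in both libraries. Prtn3 and Elane lie below 1 CPM between the expressed genes Ptbp1, at 394 CPM in 2KR and 376 in WT, and Med16, at 36.4 CPM in 2KR and 31.9 in WT.

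Several genes around these proteases were well expressed. Of 17 models in the window, 10 passed the filter on level and 9 of these had a ratio above 1, as had 52.3% of all tested models. The 1 called, E130317F20Rik, was higher in 2KR with 44 counts against 9 in WT. E130317F20Rik passed the filter only through its 2KR value (2.14 CPM, against 0.515 in WT), so its call is no separate result. A difference of the whole stretch was not tested. Ptbp1, an RNA-binding protein gene that ends 9704 bases before Prtn3, had 394 CPM in 2KR and 376 in WT, a ratio of 1.05 (1.01 to 1.08). Cfd, the complement factor D gene that lies 2636 bases after Elane, had 0 counts in both. Rnf126 and Palm, on the 2 sides of Prss57, had ratios of 1.16 (1.08 to 1.24) and 1.26 (1.16 to 1.38). The interval of Prss57 overlaps those of both neighbours.

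The upstream sequences of Prtn3 and Elane are shown because these neighbouring genes, both close to 0 here, carry the same pair of motifs in the same order. They are the 250 bases before the RefSeq transcript start on GRCm38.p6, 5′ to 3′ on the gene's strand. Capitals mark GAGGAA, the core of PU.1 sites, and AACGG, a core of MYB sites.
Prtn3, chr10:79879417-79879666, plus strand: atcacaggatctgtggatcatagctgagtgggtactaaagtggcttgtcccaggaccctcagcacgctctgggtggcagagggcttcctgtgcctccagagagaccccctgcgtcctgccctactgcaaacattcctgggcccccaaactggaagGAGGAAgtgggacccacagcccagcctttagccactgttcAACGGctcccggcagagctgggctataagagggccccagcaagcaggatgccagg
Elane, chr10:79886062-79886311, plus strand: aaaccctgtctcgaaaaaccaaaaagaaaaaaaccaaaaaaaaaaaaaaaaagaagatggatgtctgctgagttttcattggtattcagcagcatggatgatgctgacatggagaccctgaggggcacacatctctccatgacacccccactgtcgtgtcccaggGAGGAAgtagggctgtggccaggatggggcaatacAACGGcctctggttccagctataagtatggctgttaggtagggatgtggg
In Prtn3 GAGGAA spans -95 to -90 and AACGG -55 to -51, counted from the transcript start, with 34 bases between them. In Elane GAGGAA spans -85 to -80 and AACGG -50 to -46, with 29 bases between. Of 32536 such promoter windows in the RefSeq table, 23.4% hold GAGGAA, 14.4% AACGG and 3.35% (1090) both. In 74 (0.227%) of them lie these motifs in this order on 1 strand with 20 to 50 bases between, a spacing chosen after both sequences had been seen. A match is a description of letters and does not show that a factor binds.

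The Mpo window is shown because Mpo is the gene called different, with GAGGAA in capitals.
Mpo, chr11:87793534-87793783, plus strand: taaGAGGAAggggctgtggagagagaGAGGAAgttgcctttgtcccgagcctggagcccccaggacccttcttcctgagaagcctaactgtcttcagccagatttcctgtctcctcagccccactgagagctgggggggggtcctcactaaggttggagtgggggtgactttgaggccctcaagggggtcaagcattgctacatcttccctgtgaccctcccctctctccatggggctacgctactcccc
It holds GAGGAA at 2 places, -247 to -242 and -224 to -219, and AACGG at none, against 23.4% and 14.4% of all windows with at least 1 match. The factors whose cores were searched were themselves read in these cells: Myb had 851 CPM in 2KR and 613 in WT, whereas the PU.1 gene Spi1 had 82 counts in 2KR and 85 in WT.

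Ms4a3 (ENSMUSG00000024681, chromosome 19, 11629496 to 11640851, minus strand) encodes a membrane protein with 4 transmembrane segments that marks granulocyte and monocyte progenitors. It was the gene of the group with the lowest ratio. It had 12 counts in 2KR and 25 in WT, or 0.582 CPM in 2KR and 1.43 in WT, which is 2.46-fold lower in 2KR (1.19 to 5.36). On the log2 scale of CPM + 1 the ratio was -0.62, so it was not called, and its mean of 1.01 CPM lay just above the filter. The neighbouring family member Ms4a2, the beta chain of the IgE receptor of mast cells, lies 5776 bases away and had 18 counts in 2KR and 66 in WT, 4.32-fold lower in 2KR (2.54 to 7.73). Of 16 other genes of the family, 10 had 0 counts in both libraries, and Ms4a2 was the only one to pass the filter, through its WT value. With a pseudocount of 0.1 CPM the log2 ratio of Ms4a3 was -1.16, past the threshold. The 250 bases before its start hold 1 match to TTNCNNAA, a loose form of the C/EBP site, at -59 to -52, a motif found in 36.8% of all windows on either strand.

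Plac8 (ENSMUSG00000029322, chromosome 5, 100553725 to 100572245, minus strand) encodes a small cysteine-rich protein of myeloid progenitors and other cells. It had 39 counts in 2KR and 18 in WT, or 1.89 CPM in 2KR and 1.03 in WT, and the ratio of 1.84 had an interval of 1.03 to 3.41. The log2 ratio of CPM + 1 was 0.51, under the threshold. Its neighbours had smaller ratios above 1, with Cops4 at 1.27 (1.19 to 1.36) and Coq2 at 1.20 (1.07 to 1.36). Fcnb (ENSMUSG00000026835, chromosome 2, 28076378 to 28084885, minus strand), a secreted lectin that starts the complement lectin pathway, had 0 counts in both libraries. A count of 0 allows a level of up to 0.146 CPM in 2KR and 0.172 CPM in WT, taking 3 counts as the limit. Both genes next to Fcnb, Col5a1 and Olfm1, were also under the filter on level.

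Nkg7 (ENSMUSG00000004612, chromosome 7, 43437073 to 43438249, plus strand) encodes a membrane protein of cytotoxic granules. Of the 3 abundant genes it had the largest ratio. It had 5088 counts in 2KR and 3335 in WT, or 247 CPM in 2KR and 191 in WT, and was 1.29-fold higher in 2KR (1.24 to 1.35). A total of 85.8% of tested models had a lower log2 ratio. The gene next to it, Cldnd2, which starts 2532 bases downstream, had 29 counts in 2KR and 37 in WT, and Lim2 on the other side had 0 in both.

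Cst7 (ENSMUSG00000068129, chromosome 2, 150570415 to 150578944, plus strand) encodes cystatin F, an inhibitor that works in granules and lysosomes and restrains the cathepsins that activate granule proteases. It had 6513 counts in 2KR and 5798 in WT, or 316 CPM in 2KR and 332 in WT, a ratio of 0.953 (0.920 to 0.988). Srgn (ENSMUSG00000020077, chromosome 10, 62493833 to 62527451, minus strand) encodes serglycin, the proteoglycan core whose charged sugar chains hold proteases in the granule. It had 13203 counts in 2KR and 11722 in WT, or 641 CPM in 2KR and 670 in WT, a ratio of 0.956 (0.932 to 0.980). Both intervals lie just below 1. The direction of so small a difference rests on the scaling between libraries and has no replicate check. The log2 ratio ran from -0.09 to -0.05 for Cst7 and from -0.08 to -0.04 for Srgn over the 10 alternatives tried, and Vps26a and Kif1bp beside Srgn had similar ratios of 0.925 (0.855 to 1.001) and 0.913 (0.841 to 0.991).

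The windows of the abundant genes are shown because Cst7, Nkg7 and Srgn carry most of the counts of the group. Capitals mark TGTGGT, the core of RUNX sites, on either strand (ACCACA on the other), and TTNCNNAA on either strand.
Cst7, chr2:150570165-150570414, plus strand: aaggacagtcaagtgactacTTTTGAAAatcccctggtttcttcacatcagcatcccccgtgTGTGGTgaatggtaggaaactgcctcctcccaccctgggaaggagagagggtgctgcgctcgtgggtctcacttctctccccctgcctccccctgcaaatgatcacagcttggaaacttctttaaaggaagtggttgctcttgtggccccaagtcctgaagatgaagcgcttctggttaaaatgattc
Nkg7, chr7:43436888-43437137, plus strand: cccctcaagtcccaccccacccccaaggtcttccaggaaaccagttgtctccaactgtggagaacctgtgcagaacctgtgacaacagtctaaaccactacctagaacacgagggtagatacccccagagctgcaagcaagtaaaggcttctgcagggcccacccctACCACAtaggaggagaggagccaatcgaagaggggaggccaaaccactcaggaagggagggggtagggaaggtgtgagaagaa
Srgn, chr10:62507758-62508007, minus strand: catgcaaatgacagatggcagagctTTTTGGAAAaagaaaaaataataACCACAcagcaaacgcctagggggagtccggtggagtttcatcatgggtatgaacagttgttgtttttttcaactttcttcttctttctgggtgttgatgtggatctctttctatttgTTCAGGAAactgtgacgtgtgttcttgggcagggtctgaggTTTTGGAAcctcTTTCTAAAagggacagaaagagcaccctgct
For Srgn, with 2 RefSeq starts, the inner one is shown, and the window at the outer start (chr10:62527446-62527695) holds none of the motifs searched. Each of these windows holds 1 TGTGGT, at -188 to -183 in Cst7, -83 to -78 in Nkg7 and -202 to -197 in Srgn, and none holds GAGGAA or AACGG. The share of all windows with TGTGGT was 14.0%. The motif does not set abundant genes of the group apart, since the window at the outer start of Plac8, a low gene, holds it at 2 places. Srgn holds TTNCNNAA at 5 places, 2 of which overlap, Cst7 at 1 and Nkg7 at none. The RefSeq table held 11 windows for 9 of the 10 genes. None of the 11 has AGGTCA, one form of the half-site of retinoic acid receptors, or AGATAA, the core of GATA sites. Over all windows these 2 were found in 14.0% and 9.97%, and no match here says only that the letters are not in these 250 bases. Other forms of the half-site were not searched, so their absence from these windows is not shown.

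**Figure D4:**
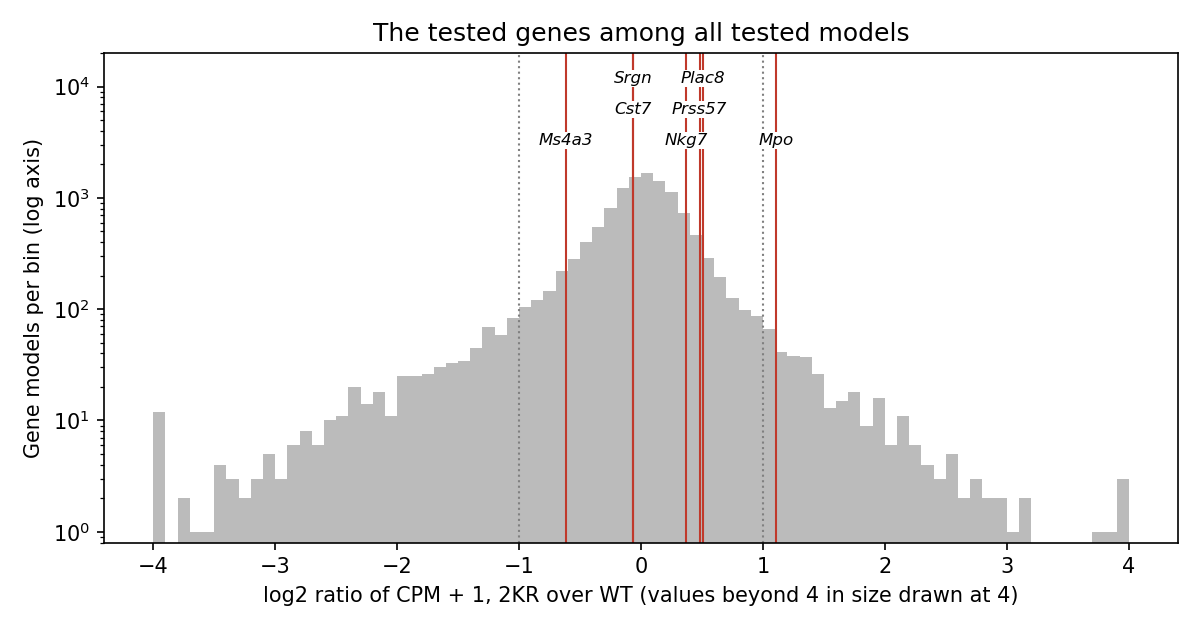
Distribution of the log2 ratio of CPM + 1, 2KR over WT, over the 12466 tested models (grey, counts per bin on a log axis), with the 7 tested genes of the group as red lines and the 2-fold limits dotted. Mpo lies beyond the upper limit at 1.10, Ms4a3 is the lowest at -0.62, and Cst7 and Srgn lie together near -0.07.

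Other proteins of the azurophil granule were mostly well expressed and close between the libraries. Of 23 listed genes found, 21 passed the filter, and 1 was called, higher in 2KR: Ctsg, cathepsin G, a serine protease of the same granule, with 487 CPM in 2KR and 212 in WT, 2.29-fold higher (2.21 to 2.38). Their median log2 ratio was -0.11, with 10 ratios above 1 and 11 below. Over all tested models 2.66% were called higher and 4.56% lower, and these shares stand beside the calls of every list below. On FPKM Ctsg had 489 in 2KR and 210 in WT, against values below 1 for Elane and Prtn3. The lysosomal hydrolases that make up most of the list had lower values in 2KR where they differed most, with Cd68, a lysosomal membrane protein, at 16.6 CPM in 2KR and 26.8 in WT, 1.61-fold lower (1.40 to 1.86). Glb1, beta-galactosidase, was 1.38-fold lower (1.32 to 1.44), as were Ctsb, cathepsin B (1.38, 1.30 to 1.46), and Psap, prosaposin (1.37, 1.33 to 1.41), and these 4 were not called. Ctsd, cathepsin D, had 669 CPM in 2KR and 798 in WT. Bpi, an antimicrobial protein of the granule, had 0 counts in both libraries. Of the lysozyme genes listed, Lyz1 also had 0 counts in both, whereas Lyz2 had 48 counts in 2KR and 32 in WT and passed the filter.

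Genes that process, transport or inhibit granule proteins gave 1 call in each direction among 20 tested, with a median log2 ratio of -0.19, 7 ratios above 1 and 13 below. Hk3, a hexokinase of myeloid cells listed with them, had 195 CPM in 2KR and 49.4 in WT, 3.95-fold higher (3.67 to 4.26). Rab27a, the small GTPase that brings granules to the membrane, had 15.6 CPM in 2KR and 57.9 in WT, 3.72-fold lower (3.28 to 4.23). Calr, a chaperone that folds the precursor of myeloperoxidase, had 1899 CPM in 2KR and 1230 in WT, 1.54-fold higher (1.52 to 1.57), without being called. Serpinb1a, an inhibitor of elastase and proteinase 3, had 439 CPM in 2KR and 781 in WT, 1.78-fold lower (1.73 to 1.83), against less than 1 CPM for Elane and Prtn3. Unc13d, which primes granules for fusion, was 1.75-fold lower (1.53 to 2.01). Pdia3, a protein disulfide isomerase, had 631 CPM in 2KR and 668 in WT. Ctsc, the cathepsin that activates the granule serine proteases and is restrained by cystatin F, had 172 CPM in 2KR and 185 in WT.

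Of the factors and receptors of granulocyte commitment, 13 of 14 passed the filter, 0 were called higher and 2 lower, with a median log2 ratio of 0.18. The 2 lower were Cebpd, with 6.02 CPM in 2KR and 35.6 in WT, 5.91-fold lower (4.87 to 7.23), and Cebpb, 3.92-fold lower (2.97 to 5.23), both of which act in late or stimulated myeloid cells. Cebpa, which starts granulocyte commitment and drives primary granule genes, had 77.5 CPM in 2KR and 47.5 in WT, 1.63-fold higher (1.499 to 1.78). Csf3r, the G-CSF receptor, had 36.9 CPM in 2KR and 18.9 in WT, 1.96-fold higher (1.72 to 2.23). Neither was called. The most abundant was Csf2rb, the shared receptor chain for IL-3 and GM-CSF, with 1353 CPM in 2KR and 1569 in WT. Cebpe, the factor of the next stage, had 7 counts in 2KR and 16 in WT and did not pass the filter.

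**Figure D5:**
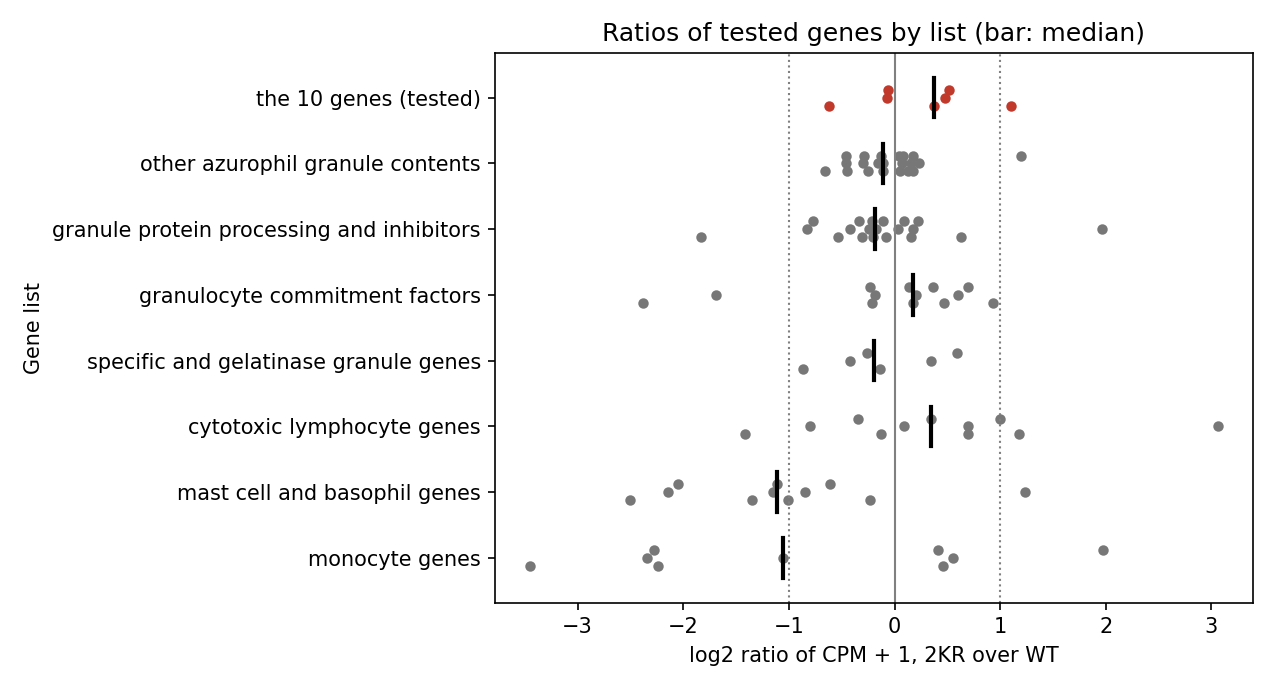
Log2 ratio of CPM + 1, 2KR over WT, for the tested genes of 8 lists, with the 10 genes of the group in red (7 tested), medians as black bars and the 2-fold limits dotted. The medians run from -1.11 for mast cell and basophil genes to 0.37 for the group.

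Markers of later granulocytes and of other cells that use the abundant genes were read as well. Beside the calls of each list here stand the 2.66% of all tested models called higher in 2KR and the 4.56% called lower. No excess is read from lists this small, which were chosen with earlier results known. Of 18 genes of specific and gelatinase granules 6 passed the filter and 0 were called, Camp, Olfm4 and Cd177 had 0 counts in both libraries, and the summed level of the list was 328 CPM in 2KR and 262 in WT, most of it Hp, haptoglobin, with 255 CPM in 2KR and 169 in WT. Lcn2, lipocalin 2 of the specific granule, was 1.88-fold lower in 2KR (1.63 to 2.18) and Pglyrp1, a peptidoglycan-binding protein, 1.29-fold higher (1.09 to 1.54). Cyba, a chain of the NADPH oxidase, was 1.36-fold lower (1.20 to 1.54). Of 15 genes of cytotoxic lymphocytes 13 had counts and 11 passed the filter, with 3 called higher and 1 lower and a summed level of 2220 CPM in 2KR and 1103 in WT. Gzmb, granzyme B, made up 1798 CPM of this in 2KR and 897 in WT. Gzmc, granzyme C, was 8.73-fold higher (7.81 to 9.78) and Il2rb, an IL-2 receptor chain, 2.29-fold higher (2.09 to 2.51). Genes of T and natural killer cells went in both directions. Over the 11 tested genes of the list 7 ratios were above 1 and 4 below. Those above 1 included Prf1 (97 counts in 2KR, 44 in WT) and Ctsw (2156 in 2KR, 1441 in WT). Cd7 had a ratio of 1.07 (0.932 to 1.23). Cd3e and Ncr1 had 0 counts in both libraries, Cd3g had 40 counts in 2KR and 72 in WT, Klrd1, called lower, had 33 in 2KR and 104 in WT, Klrb1c had 49 in 2KR and 47 in WT, Zap70 had 400 in 2KR and 437 in WT, and Tbx21 had 116 in 2KR and 54 in WT. Of the genes of the group shared with cytotoxic lymphocytes, Nkg7 had a ratio of 1.29 and Cst7 one of 0.953. The part of such markers in the values of Nkg7 and Cst7 was not tested. Of the 11 mast cell and basophil genes tested 7 were called lower and 1, Mcpt8, higher in 2KR. Among those called lower, Prss34, Cma1 and Ms4a2 passed the filter only through their WT values, so their calls are no separate result. Mitf, a mast cell transcription factor, had 52 counts in 2KR and 255 in WT, and the protease gene Prss34 had 0 counts in 2KR and 82 in WT and Cma1, another, 2 in 2KR and 62 in WT, while Srgn, which mast cells use, differed by about 5%. Of 9 eosinophil granule genes, Epx, Prg3, Ear1, Ear2 and Ear6 had 0 counts in both libraries, and the summed level was 2.62 CPM in 2KR and 3.32 in WT. Of the 2 tested genes of that list, Il5ra, a chain of the IL-5 receptor, was called lower with 15 counts in 2KR and 43 in WT. Il5ra passed the filter only through its WT value, so its call is no separate result. Siglecf, a sialic acid receptor, had 39 counts in 2KR and 10 in WT and was not called. Monocyte genes, 12 of 12 with counts, gave 5 calls lower and 1 higher among 9 tested, with a summed level of 458 CPM in 2KR and 585 in WT. The monocyte gene called higher passed the filter only through its 2KR value. The most different were Gpnmb (3.69 CPM in 2KR, 50.3 in WT), Klf4 (1.46 in 2KR, 11.5 in WT), F13a1 (5.58 in 2KR, 30.9 in WT) and Cx3cr1 (20.7 in 2KR, 101 in WT), and the most abundant were Fn1 (350 in 2KR, 263 in WT) and Ccr2 (56.2 in 2KR, 118 in WT). Erythroid and megakaryocyte genes gave 2 calls higher, Pf4 and Ppbp, and 0 lower among 7 tested, with 1317 CPM in 2KR and 1017 in WT. Most of that sum was Itga2b, an integrin of megakaryocytes and progenitors, with 858 CPM in 2KR and 867 in WT, and the globin genes Hba-a1 (20.1 CPM in 2KR, 10.7 in WT) and Hbb-bt (1.26 in 2KR, 3.15 in WT) were not called. Progenitor genes gave 2 calls in each direction among 11 tested, with 1772 CPM in 2KR and 1253 in WT. The higher ones were Mecom, with 997 counts in 2KR and 0 in WT, and Angpt1, with 1027 counts in 2KR and 132 in WT. Mecom passed the filter only through its 2KR value. The lower ones were Meis1 (35.5 CPM in 2KR, 94.8 in WT) and Cd27 (6.02 in 2KR, 16.1 in WT), and Sox4, with Cd34 the most abundant, had 442 CPM in 2KR and 287 in WT. The part of these cell types in the ratios of the 10 genes was not tested.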

How the data were processed

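One PML/RARa (2KR) and one PML/RARa (WT) RNA-seq library were used, grouped by the stated infection. HISAT2 2.0.4 and GRCm38 are named in the submitters' processing notes. Counting program, annotation release and strandedness: not given in the sources used here. The authors deposited, as the headers of both files say, raw counts and FPKM for each gene model; per the file headers no scaling of the counts is stated. Gene lengths implied by the deposited FPKM were the same in both libraries within 0.1% for 15403 of 15403 models with counts in both. Reads of overlapping genes cannot be told apart without strand.

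CPM were computed after TMM scaling (edgeR 4.0.16 in R 4.3.3; factors 1.007 for 2KR and 0.993 for WT). Folds use CPM; log2 ratios use CPM + 1, which understates differences of low genes. A mean of 1 CPM or more was required, and a log2 ratio of at least 1 in size was called; with 1 library per form there is no significance test. Intervals at 95% are Clopper-Pearson for ratios, Poisson for levels and Wilson for shares, and the limit for a count of 0 is 3 counts per library. The procedure was tested on simulated data. Alternatives were other pseudocounts, filters, scalings (DESeq2 1.42.0 size factors among them) and size rules, FPKM, and leaving out mitochondrial models or genes with shared exons. Software was Python 3.11.15 with scipy 1.17.1, pandas 2.3.3, numpy 2.4.6 and matplotlib 3.10.9.

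Exons, strands and transcript lengths come from GENCODE M21 on GRCm38 (34344 of 34745 identifiers matched), and sequences from RefSeq on GRCm38.p6; after each of the 11 windows the next 30 bases matched a GENCODE transcript. The genes, lists and rules were chosen with earlier results of these data known. The text names all 10 genes, their neighbours and overlapping models, and from each other list up to 4 tested genes with the largest log2 ratio in size and the 2 with the highest mean. Spi1, Cebpe, Ctsc, Lyz2, Mcpt8, Cd3g, Klrb1c, Zap70, Tbx21, Prf1, Ctsw, Cd7, E130317F20Rik, Med16, genes at 0 counts and neighbours under the filter were chosen after their values were seen. Itgam, with several rows, was left out.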

Additional observations from a re-analysis of the deposited data

How the results depend on the processing

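The call of Mpo depends on the pseudocount and the unit. With 1 of the 10 genes called in the main analysis, 0 were called with a pseudocount of 5 CPM or on deposited FPKM, and 2, Mpo and Ms4a3, with a pseudocount of 0.1 CPM or with a size rule of 1.5-fold; these settings called 3.56%, 3.78%, 9.31% and 16.6% of all models. The larger or smaller pseudocount moves the ratio of low genes by construction. The other 7 settings that could change this count gave 1. The median log2 ratio was -0.065 over 5 genes without Mpo and Prss57, which share exon bases with other models and have positive ratios, and, chosen after seeing the data, 0.50 over 4 genes without Cst7, Nkg7 and Srgn; under the other 10 settings it lay between 0.15 and 0.39. With mitochondrial models left out of the totals the share of counts in the 10 genes was 0.134% in 2KR and 0.130% in WT, since the total is smaller. Of 90 single-gene ratios under 10 settings, 0 changed sign. For part of the settings this was fixed in advance. The filters leave a single ratio as it is, and a pseudocount cannot reverse it. FPKM has the sign given by the library totals, because the lengths are the same in both libraries. The log2 ratio of Ms4a3 ran from -1.16 to -0.20 and that of Mpo from 0.95 to 1.15. No paired analysis was possible because each form had 1 library. Depth limits Elane, Prtn3, Ms4a3 and Plac8, with at most 39 counts in a library, and Fcnb, and variation between cultures was not measured for any gene.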

Other observations

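Genes related to the group by family or by the making of serglycin chains gave further differences. Of 15 tested genes for proteoglycan cores and chain synthesis, 1 was called higher and 2 lower in 2KR, with a median log2 ratio of -0.16. Of all tested models 2.66% were called higher and 4.56% lower. Chst15, a sulfotransferase that makes the highly sulfated chondroitin chains of mast cell serglycin, had 48.6 CPM in 2KR and 158 in WT, 3.24-fold lower (3.01 to 3.49), beside a serglycin transcript that differed by about 5%. Cd44, a receptor that carries such chains, was 3.62-fold lower (3.17 to 4.15). Bgn, a small extracellular proteoglycan, had 195 counts in 2KR and 39 in WT, 4.24-fold higher (2.996 to 6.15). Vcan, versican, was 1.75-fold lower (1.68 to 1.83) and Xylt1, which starts the chains, was 1.70-fold lower (1.62 to 1.79), and neither was called.

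Of the cystatin relatives of Cst7, 4 of 11 passed the filter and all 4 had a ratio below 1. Fetub, fetuin B, had 87.2 CPM in 2KR and 311 in WT, 3.57-fold lower (3.38 to 3.77), and was called, whereas Cst3, Cstb and Ahsg were not. Of the peroxidase relatives of Mpo, Epx had 0 counts in both libraries, and the cyclooxygenase genes Ptgs2 and Ptgs1 were 8.86-fold (8.42 to 9.32) and 3.24-fold lower (2.68 to 3.93) in 2KR. Both genes with the PLAC8 domain, relatives of Plac8, had 0 counts. None of the 8 ficolin and lectin pathway relatives of Fcnb passed the filter. Of the granule serine protease relatives, 7 of 20 passed it. All 7 were called, 5 higher and 2 lower, where the rule called 2.66% of all tested models higher and 4.56% lower. The list was chosen with earlier results of these data known, so no excess is read from these calls. Called higher in 2KR were 5, Ctsg, Gzmb, Gzmc, Gzmd and Mcpt8, which all lie on chromosome 14. Called lower were 2, Cma1 (0.097 CPM in 2KR, 3.55 in WT), also on chromosome 14, and Prss34 (0 in 2KR, 4.69 in WT), on chromosome 17. These 2 passed the filter only through their WT values, so their calls are no separate result. Elane and Prtn3 were below the filter.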
